A study of Mus musculus with 2 samples.

Results

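The genes described here encode globin chains and proteins of red blood cells, and their levels were compared between incisors of wild-type (WT) and *Sox21* knockout (*Sox21* KO) mice. The 9 genes were chosen by name as globins or erythroid genes, *Hba-a1*, *Hba-x*, *Hbb-bh1*, *Hbb-y*, *Alas2*, *Ahsp*, *Slc4a1*, *Klf1* and *Gata1*, among 21245 genes with a probe on the array. All 9 have a probe, and *Hbb-y* has 2, which makes 10 probes. Incisor RNA of newborn mice was measured on 1-colour Agilent arrays of mouse genes, 1 for each genotype. The sample labels give postnatal day 0, whereas the methods of the study give the day after. Per those methods, C57BL/6J mice served as WT and the *Sox21* KO mice were a gift. The sources used here give neither the number of mice behind each array nor the genetic background of the *Sox21* KO mice. With 1 array per genotype there is no replicate check and no test, so every difference below compares these arrays and not the genotypes. *Sox21*, the targeted gene, encodes a transcription factor, and its signal was 1362 in WT and 659 in *Sox21* KO at 1 probe and 286 and 103 at the other. Its log2 ratios of *Sox21* KO to WT were -1.09 and -1.51, so the array labelled *Sox21* KO had the lower signal at both probes. Both probes were still well above background on that array, and whether they lie in the deleted stretch is not given in the sources used here.

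Haemoglobin carries oxygen in red cells and is built from alpha-like and beta-like globin chains, each bound to haem. The alpha-like genes lie together in 1 cluster and the beta-like genes in another, and primitive red cells of the early embryo use chains that definitive red cells of the fetal liver and bone marrow later replace. The transcription factors GATA1 and KLF1 switch on globin, haem and membrane genes in red cell precursors. Mature mammalian red cells have lost their nucleus, and younger ones still hold globin mRNA, so blood vessels within a dissected tissue can contribute these transcripts.

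The measurement for each gene is the brightness of 60-base probes, which were printed here where they lie in coding sequence. These 4 probe sequences are shown because they define which alpha-like, beta-like and chaperone transcripts the values stand for. The *Hba-a1* probe lies at chr11:32183955-32184014, the *Hba-x* probe at chr11:32177668-32177727 (both on the plus strand) and the second *Hbb-y* probe at chr7:111000448-111000507 on the minus strand, as the files give them for mm9. The *Ahsp* probe is listed as unmapped. Each of these 4 probes reads through without a stop codon in exactly 1 of the frames.
Hba-a1 probe: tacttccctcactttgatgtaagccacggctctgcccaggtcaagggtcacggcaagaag
Hba-x probe: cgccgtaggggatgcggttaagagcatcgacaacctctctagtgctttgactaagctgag
Hbb-y second probe: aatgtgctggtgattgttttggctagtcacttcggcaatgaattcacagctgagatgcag
Ahsp probe: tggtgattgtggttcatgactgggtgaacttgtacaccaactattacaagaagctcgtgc
Over all pairs among the 9 probes of measured or embryonic globin genes, the longest run of bases shared by both probes was 8. The adult gene *Hba-a2*, however, is a near-identical copy of *Hba-a1*, and the run shared by their promoters was 297 of 300 bases. The signal of the *Hba-a1* probe can therefore include *Hba-a2* transcripts, and adult beta-like genes can likewise share signal.

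Of the 9 genes, 4 were measured, that is, well above background on both arrays by the mark of the scanner software, as were 64.9% of all genes with a probe. These were *Hba-a1*, *Alas2*, *Ahsp* and *Slc4a1*. The other 5 genes were not well above background on either array, and they comprise the 3 embryonic globins and the 2 transcription factors. Signals that carried this mark began at 21.3 on the WT array and at 19.5 on the *Sox21* KO array. None of the spots of the 10 probes was saturated or marked as an outlier (0 on each array).

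*Hba-a1* encodes the adult alpha chain of haemoglobin. Its processed signal, which is the background-subtracted brightness of the spot, was 39686 ± 3969 on the WT array and 31764 ± 3176 on the *Sox21* KO array, where the error is the one the scanner software gives for a spot. Divided by the 75th percentile of its array, the signal was 148 in WT and 115 in *Sox21* KO incisor. The ratio of *Sox21* KO to WT was 0.778, a log2 ratio of -0.36 with a scanner error of 0.20. *Hba-a1* was thus the lowest of the 4 measured genes in *Sox21* KO relative to WT, and 8.03% of all measured genes had a log2 ratio as low or lower.

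*Slc4a1* encodes band 3, the anion exchanger of the red cell membrane. Its signal was 125 ± 13.5 in WT and 105 ± 11.5 in *Sox21* KO incisor, and the log2 ratio was -0.30 with a scanner error of 0.22. Both signals were dim but above the signals at which the mark begins. Of the negative-control spots, which match no mouse transcript, 1 on the WT array and 0 on the *Sox21* KO array were as bright or brighter. Of all measured genes, 11.0% had a log2 ratio as low or lower.

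*Alas2* encodes the erythroid enzyme that starts haem synthesis. Its signal was 554 ± 55.7 in WT and 533 ± 53.5 in *Sox21* KO incisor. The log2 ratio of -0.10 was smaller than its scanner error of 0.20, and 64.3% of all measured genes were as far from 0 or farther.

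*Ahsp* encodes the alpha haemoglobin stabilizing protein, a chaperone that holds free alpha chains until they pair with beta chains. Its signal was 1101 ± 110 in WT and 1290 ± 129 in *Sox21* KO incisor. The log2 ratio was 0.19, within its scanner error of 0.20. *Ahsp* was the exception in direction among the 4 measured genes.

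**Figure D1:**
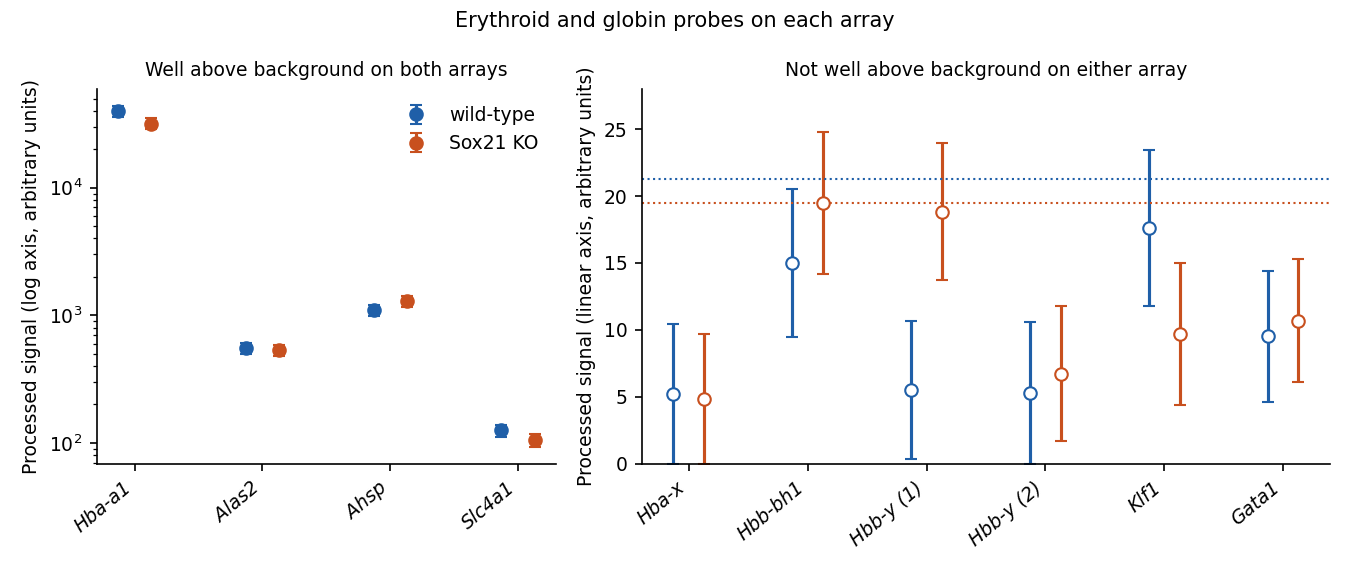
Processed signal of each of the 10 probes on the WT array (blue) and the *Sox21* KO array (orange), with the error of the scanner software. The left panel has a log axis and holds the 4 measured genes. The right panel has a linear axis, open points for signals not well above background and dotted lines where the mark begins, at 21.3 in WT and 19.5 in *Sox21* KO.

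Of the 4 measured genes, 3 had a lower and 1 a higher signal in *Sox21* KO incisor, whereas 47.6% of the 13797 measured genes were lower and 52.4% were higher. Their median log2 ratio was -0.20, against 0.01 over all measured genes. It was -0.12 under scaling by the median, and with the weaker detection mark, which admits 4 of the 5 dim genes, it changed sign to 0.014. None of the 4 genes was at least 2-fold apart (0 genes), as were 1.41% of all measured genes, with 0.739% at least 2-fold higher and 0.667% at least 2-fold lower. These shares stand for 102 higher and 92 lower genes, which became 128 and 68 when the arrays were scaled by their median. The log2 ratios of the 4 genes lay between -0.36 and 0.19, inside the 5th and 95th percentiles of all measured genes, which were -0.47 and 0.48. Each scanner error is for 1 spot and covers neither the mouse nor the dissection. For 298 measured probes with repeated spots, the median SD between the log2 ratios of their spots was 0.09. In RNA of whole tissue, fewer red cells and less RNA per red cell cannot be told apart.

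**Figure D2:**
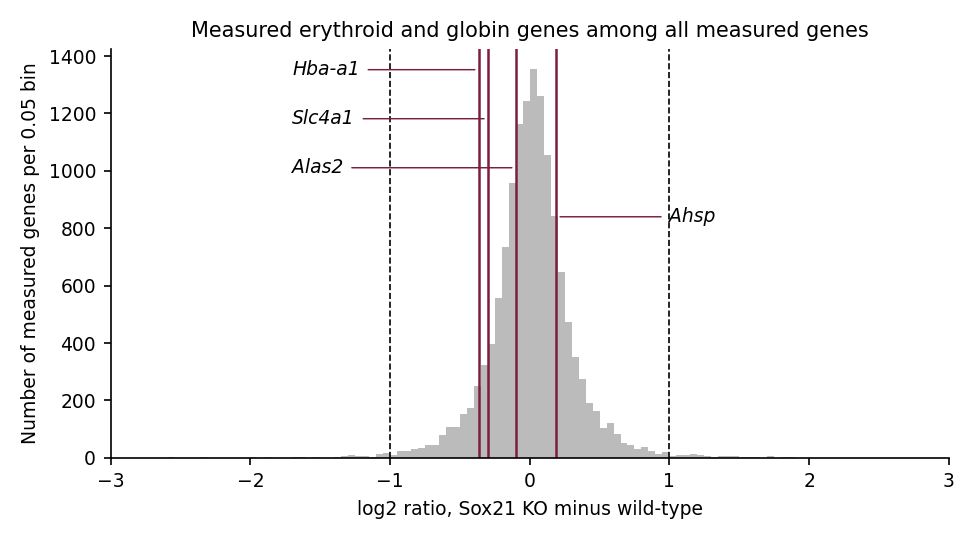
Number of measured genes (vertical axis, bins of 0.05) by log2 ratio of *Sox21* KO minus WT (horizontal axis), with red lines at *Hba-a1*, *Slc4a1*, *Alas2* and *Ahsp* and dashed lines at 2-fold. The 4 genes, from -0.36 to 0.19, lie within the bulk of the 13797 genes.

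The difference between the log2 ratios of 2 genes does not depend on the number by which each array is divided, although quantile normalization can move it. Between *Ahsp* and *Hba-a1*, that is, the alpha chain and its chaperone, it was 0.55, with an error of 0.29 from the scanner errors. It was 0.48 ± 0.30 between *Ahsp* and *Slc4a1* and 0.27 ± 0.29 between *Alas2* and *Hba-a1*. The first 2 of these differences exceeded their error and the third did not. However, those 2 pairs set the highest log2 ratio of the 4 genes, that of *Ahsp*, against the 2 lowest. Wide gaps thus follow in part from the choice of pairs. The errors cover neither the mouse nor the dissection, and no difference between these genes was tested.

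The other adult globin genes were all measured. *Hba-a2*, the second adult alpha gene, had signals of 180843 in WT and 148242 in *Sox21* KO incisor and a log2 ratio of -0.33, near that of *Hba-a1*. The beta-like *Hbb-bt*, named *Hbb-b1* in the files, had signals of 24551 and 22344 and a log2 ratio of -0.18. *Hbb-b2* had 7686 and 7587, a log2 ratio of -0.06, and *Hbb-bs* had 2681 and 2748, a log2 ratio of -0.01. All 5 measured globin genes thus had a log2 ratio below 0, as did 47.6% of all measured genes. Under scaling by the median, however, *Hbb-b2* and *Hbb-bs* turned to 0.01 and 0.07. The *Hbb-b2* probe is listed as unmapped, and probes of adult globin genes can share signal, so the 5 values may not be separate measures. The mean log2 ratio was -0.35 over the 2 alpha-like probes and -0.08 over the 3 beta-like probes. The beta-like mean exceeded the alpha-like mean by 0.26, with a scanner error of 0.19. This error treats the probes as independent, although they can share signal, and it covers neither the mouse nor the dissection. Whether alpha-like and beta-like genes differ was not tested.

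**Figure D3:**
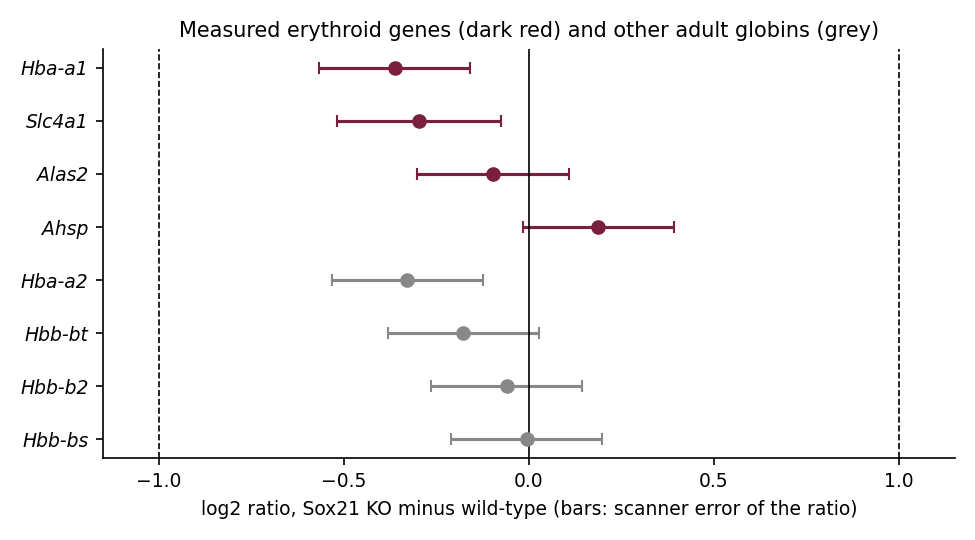
Log2 ratio of *Sox21* KO minus WT (horizontal axis) for the 4 measured genes in dark red and the 4 other measured adult globin genes in grey, with bars for the scanner error of each ratio. The alpha-like genes *Hba-a1* and *Hba-a2* lie at -0.36 and -0.33, and all 8 genes lie inside the dashed lines at 2-fold.

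The embryonic globins were at or near background on both arrays. *Hba-x* encodes zeta globin, the embryonic alpha-like chain. Its signal was 5.20 ± 5.22 in WT and 4.85 ± 4.87 in *Sox21* KO incisor, so that neither signal exceeded its error. Of the 308 negative-control spots on each array, which match no mouse transcript, 141 on the WT array and 124 on the *Sox21* KO array were as bright or brighter.

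*Hbb-bh1* encodes an embryonic beta-like chain. Its signal was 15.0 ± 5.52 in WT and 19.5 ± 5.33 in *Sox21* KO incisor, close to where the mark begins on the *Sox21* KO array. Only 5 negative-control spots on the WT array and 1 on the *Sox21* KO array reached it. No ratio is given for this gene, since neither signal was well above background.

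*Hbb-y* encodes epsilon globin, also an embryonic beta-like chain, and it has 2 probes. The probe at chr7:111000268-111000327 (mm9) had a signal of 5.50 ± 5.13 in WT and 18.8 ± 5.13 in *Sox21* KO incisor. The second probe, whose sequence is given above, had 5.28 ± 5.30 in WT and 6.71 ± 5.05 in *Sox21* KO. The first signal was reached by 85 negative-control spots in WT and by 1 in *Sox21* KO, and the second by 128 and 5. The *Sox21* KO signal was thus the higher at both probes, by more than the errors at the first and within them at the second.

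The embryonic genes were compared with the other minor globin genes. *Hbq1a* and *Hbq1b*, the theta-like genes of the alpha cluster, and *Hbb-bh2*, a further beta-like gene, were not well above background on either array. Their 5 probes had signals between 4.43 and 10.5 in WT and between 4.06 and 11.1 in *Sox21* KO incisor.

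The erythroid transcription factors among the 9 genes were also dim. *Klf1* had a signal of 17.6 ± 5.84 in WT and 9.71 ± 5.32 in *Sox21* KO incisor, and 4 and 3 negative-control spots were as bright or brighter. *Gata1* had 9.51 ± 4.89 in WT and 10.7 ± 4.60 in *Sox21* KO incisor, and 8 and 2 negative-control spots were as bright or brighter. Of the 6 probes not well above background, 4 passed the weaker mark of the scanner software on both arrays, those of *Hbb-bh1*, *Klf1* and *Gata1* and the first of *Hbb-y*. Since none of these signals was well above background, no ratio between the arrays is given for them.

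Promoter sequence from RefSeq (GRCm38.p6) was given for 6 of the 9 genes, *Hba-a1*, *Hba-x*, *Hbb-y*, *Alas2*, *Klf1* and *Gata1*. It is shown for an adult and an embryonic alpha-like gene, an embryonic beta-like gene and *Alas2* because these genes lie on either side of the detection mark. Each line holds the 150 bases before the start of transcription. Capitals mark matches to motifs. A GATA motif is AGATAA with the variant form AGATAG, or else TGATAA with the variant form TGATAG, on either strand. A CACCC box is CCNCNCCC and a CCAAT box is CCAAT, also on either strand. A TATA box is TATAAA or else the form TATAAG, on the sense strand. Neighbouring matches can overlap, as the CACCC boxes of *Alas2* do. The 4 stretches are chr11:32283522-32283671 and chr11:32276450-32276599 on the plus strand, chr7:103853208-103853357 on the minus strand and chrX:150547267-150547416 on the plus strand.
Hba-a1 promoter: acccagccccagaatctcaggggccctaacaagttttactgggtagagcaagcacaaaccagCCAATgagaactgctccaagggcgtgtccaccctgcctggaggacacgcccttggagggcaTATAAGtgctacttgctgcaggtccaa
Hba-x promoter: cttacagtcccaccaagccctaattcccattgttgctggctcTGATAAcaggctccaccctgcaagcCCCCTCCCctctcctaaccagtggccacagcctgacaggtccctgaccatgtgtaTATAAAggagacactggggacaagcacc
Hbb-y promoter: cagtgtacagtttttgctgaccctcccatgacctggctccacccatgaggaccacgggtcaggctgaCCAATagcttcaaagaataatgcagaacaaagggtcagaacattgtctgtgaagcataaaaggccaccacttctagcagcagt
Alas2 promoter: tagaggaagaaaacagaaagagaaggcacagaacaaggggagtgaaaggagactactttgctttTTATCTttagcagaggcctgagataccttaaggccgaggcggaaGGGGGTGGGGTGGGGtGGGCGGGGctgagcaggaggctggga
Over the 250 bases before the start, a GATA motif was found in 5 of the 6 promoters, all but that of *Gata1*, and in 26.5% of the 32851 promoters of the table. A CACCC box was found in 3 of the 6, *Hba-x*, *Alas2* and *Gata1*, and in 45.9% of all promoters. A CCAAT box was found in 3 of the 6, *Hba-a1*, *Hbb-y* and *Klf1*, and in 33.8% of all. A TATA box was found in 3 of the 6, *Hba-a1*, *Hba-x* and *Alas2*, and in 11.2% of all. Some of these matches lie farther upstream than the stretches shown, namely the GATA motifs of *Hba-a1* and *Hbb-y*, which begin 183 and 162 bases before the start, the other GATA motif of *Hba-x*, which begins 234 bases before it, and the TATA box of *Alas2*, which begins 207 bases before it. In *Hba-a1* the CCAAT box begins 88 and the TATA box 27 bases before the start, and in *Hba-x* the TATA box begins 28 bases before it. Both the measured *Hba-a1* and the undetected *Hba-x* carry a GATA motif and a TATA box. These matches are letters in a window and not binding sites.

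Genes that act with the 9 in red cells were grouped by role. Haem synthesis and its transporters comprise 11 genes, all measured, of which 6 were higher and 5 lower in *Sox21* KO incisor, with a median log2 ratio of 0.01. The highest was *Slc25a39*, a mitochondrial carrier, at 0.19. Unlike *Alas2*, these genes are not confined to red cells.

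Of 18 genes of the red cell membrane, 7 were measured, with 4 higher, 3 lower and a median of 0.05. This median turned to -0.07 with the mean over probes and to -0.12 with no detection filter. At the probes used, *Rhd* was lowest at -0.20, with signals of 49.1 and 44.1, and *Slc2a1*, a glucose transporter of many cell types, was highest at 0.74. *Epb41* counted as higher at 0.14, although its other measured probes ran from -0.74 to -0.01. On neither array were 10 of the 18 well above background, including *Ank1*, the ankyrin that anchors spectrin, with 13.4 in WT and 11.9 in *Sox21* KO. *Sptb*, beta spectrin, was well above background on the *Sox21* KO array alone, at 25.0 against 23.5 in WT, which makes it at least 1.03-fold higher.

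Of 13 erythroid transcription factor genes besides *Klf1* and *Gata1*, 11 were measured, with 8 higher, 3 lower and a median of 0.06. *Gata2*, which precedes *Gata1* in blood progenitors, was lowest at -0.32, and *Myb* was highest at 0.27, with a scanner error of 0.40. *Tal1*, a partner of GATA1 that endothelial cells also use, had 85.4 in WT and 92.3 in *Sox21* KO incisor. Of 19 genes of erythropoietin signalling, iron uptake and late maturation, 16 were measured, with 11 higher, 5 lower and a median of 0.09. *Cat*, catalase, was lowest at -0.49, although its other measured probe gave 0.34, and *Tfr2*, a transferrin receptor, was highest at 0.54. Across these 4 groups, 0 genes were at least 2-fold higher and 0 at least 2-fold lower, against 0.739% and 0.667% of all measured genes. With shares this small, counts of 0 say little about these groups.

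Markers of other cell types differed between the arrays as well. The arrays carried the markers of the labelled tissue, since all 10 tooth germ genes were measured, among them *Amelx*, the main enamel matrix gene. Their median log2 ratio was -0.12, and of the group *Amtn*, at -1.89, and *Klk4*, at -1.05, were at least 2-fold lower, while *Dmp1* was highest at 0.93. Of 13 endothelial genes, all were measured, with 9 higher, 4 lower and a median of 0.09, and their summed signal over the 75th percentile was 99.1 in WT and 98.2 in *Sox21* KO. *Emcn* was lowest at -0.29 and *Tek* highest at 0.64. The bright probes of *Kdr*, at 43.8 in WT and 43.2 in *Sox21* KO, and *Egfl7*, at 29.1 and 25.5, made up most of this sum. Sums of this kind add the brightness of different probes and do not measure the amount of a cell type.

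*Gata1* also acts in megakaryocytes, mast cells and eosinophils, so markers of these cells were examined. Of 11 platelet and megakaryocyte genes, 5 were measured and all 5 were higher in *Sox21* KO incisor, as were 52.4% of all measured genes. Their median was 0.35, from *Pf4* at 0.06 to *Gp1bb* at 0.73. With the normexp background correction this median was 0.18. Their summed level was 10.9 in WT and 12.4 in *Sox21* KO. *Gp1bb* was dim, at 29.4 in WT and 50.3 in *Sox21* KO, with a scanner error of 0.34, whereas the brighter *Pf4* had 1680 and 1804. *Gp9* was well above background on the *Sox21* KO array alone and at least 1.56-fold higher there. Of 10 mast cell and eosinophil genes, 6 were measured, with 5 lower, 1 higher and a median of -0.52, and their summed level was 4.28 in WT and 3.87 in *Sox21* KO. The mast cell protease *Mcpt4* was lowest at -0.99, with signals of 242 and 126, and *Kit* was highest at 0.57. With normexp the median of this list was -0.31. *Gata1* itself, at 9.51 and 10.7, was not well above background beside either group.

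Of 9 neutrophil genes, 5 were measured, all lower, as were 47.6% of all measured genes. Their median was -0.08, from *Mpo* at -0.56 to *S100a9* at -0.02, and their summed level was 11.2 in WT and 10.9 in *Sox21* KO. Under scaling by the median, *Elane* and *S100a9* moved above 0 and the median was -0.01, and it was -0.02 with the mean over probes and with either looser detection filter. Of 11 macrophage genes, 9 were measured, with 7 higher, 2 lower and a median of 0.33, from *Cx3cr1* at -0.34 to *Cd68* at 0.50, and a summed level of 38.9 in WT and 48.2 in *Sox21* KO. *Csf1r* alone gave 32.9 and 41.3 of these sums, and the log2 ratios of its other probes ran from -0.01 to 0.84. The other 2 genes, *Lyz2* and *Ptprc*, were well above background on the *Sox21* KO array alone, at least 1.12-fold and 1.09-fold higher. Of 9 skeletal muscle genes, 8 were measured, with 7 lower, 1 higher and a median of -0.59, from *Ckm* at -0.71 to *Myh3* at 0.64. Their summed level was 92.2 in WT and 64.8 in *Sox21* KO. The skeletal muscle and mast cell lists thus had medians farther below 0 than the 4 measured erythroid genes, whereas the macrophage and platelet lists lay above 0. The part of these cell types in the values of *Hba-a1* and the other erythroid genes was not tested.

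**Figure D4:**
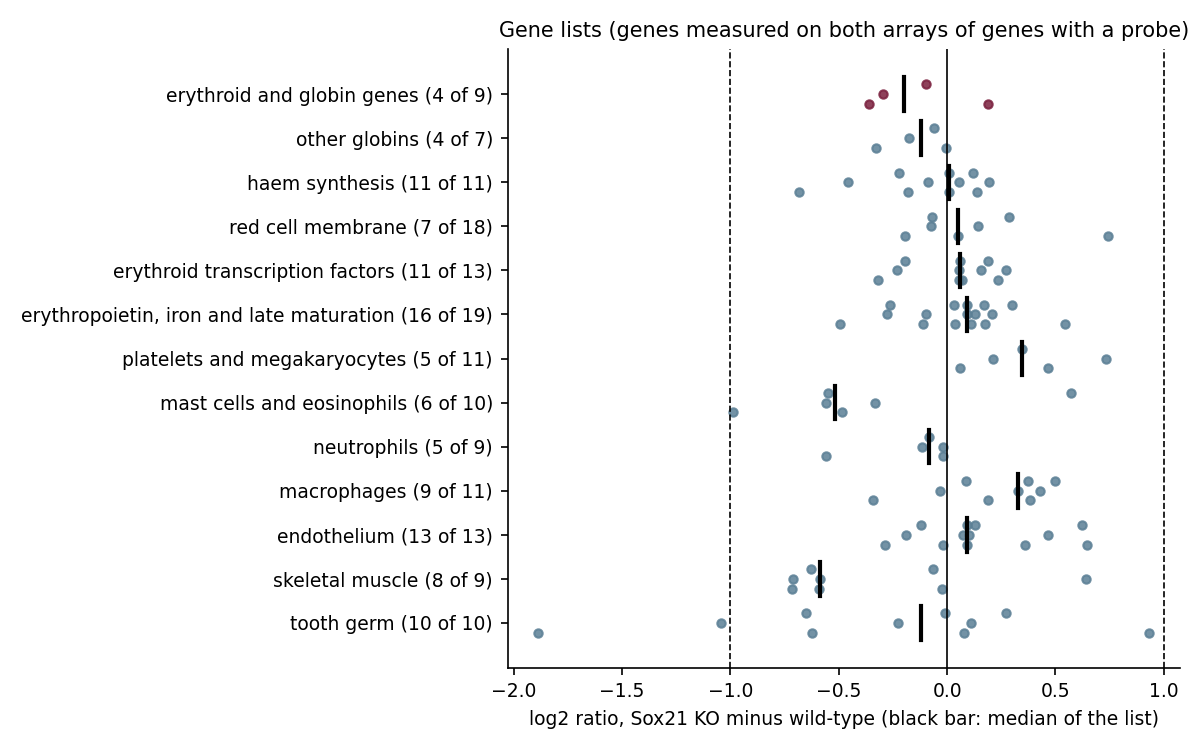
Log2 ratio of *Sox21* KO minus WT (horizontal axis) of each measured gene, 1 row per list, with the number of genes measured and of genes with a probe in parentheses, a black bar at the median and dashed lines at 2-fold. The erythroid and globin genes (dark red) have a median of -0.20, the mast cell and skeletal muscle lists have -0.52 and -0.59, and the platelet list has 0.35.

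The 4 measured genes were recomputed under 3 other scalings and the normexp background correction, the alternatives that could move them. Under these, the log2 ratio of *Hba-a1* lay between -0.38 and -0.29, that of *Slc4a1* between -0.31 and -0.22, that of *Alas2* between -0.11 and -0.02 and that of *Ahsp* between 0.15 and 0.26. None of the 4 changed direction (0 changes each). The other settings leave these values as they are by construction, since each of the 4 genes has 1 measured probe, which passes the stricter mark and has no outlier spot, and the authors' value table holds the same signals.

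**Figure D5:**
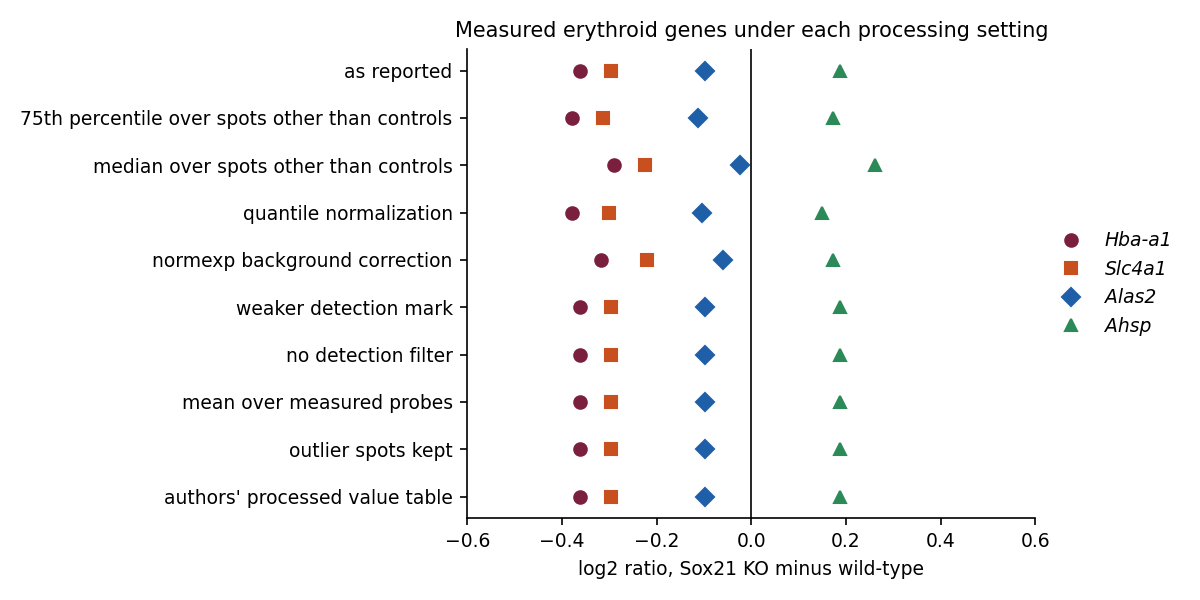
Log2 ratio of *Sox21* KO minus WT (horizontal axis) of the 4 measured genes as reported and under each alternative setting (rows). *Hba-a1*, *Slc4a1* and *Alas2* stay below 0 and *Ahsp* above 0 in every row, and the filter, probe and outlier settings and the authors' table could not move them.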

How the data were processed

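Incisor RNA of 1 wild-type and 1 *Sox21* KO sample was measured on 1-colour arrays. The authors deposited, per the file headers, the processed signal intensity of each spot from Feature Extraction 10.7.3.1, with its error, the raw mean intensity and the local background. A value table deposited beside these holds linear ratios, in which each signal is divided by 1 number per array, 268 for WT and 276 for *Sox21* KO. The methods name GeneSpring and, for pathway analysis, a percentile shift, with the percentile not given in the sources used here.

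Each processed signal was divided by the 75th percentile of all 62976 spots of its array, log2 was taken and spots of a probe were averaged, after leaving out 267 spots marked as outliers. The log2 ratio is *Sox21* KO minus WT. For genes with several measured probes the brightest was used, and all probes of the 9 genes are given. Current symbols came from RefSeq genes of GRCm38.p6, by accession for 26298 of 55679 probes, by symbol for 2044 and by an older symbol for 355, while 26982 kept the name in the files. A gene well above background on 1 array only was given a bound, its brighter signal over the larger of the dimmer signal and the lowest one marked as well above background. Levels of different genes were not ranked, and levels of different probes were used together only to pick the brightest probe of a gene and in the summed level of a list.

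With 1 array per genotype no test was possible, and precision is limited by the number of arrays. The 9 genes, the supporting lists and the naming rule (all 9 genes, *Sox21*, and in each list the genes past 2-fold and the highest and lowest) were chosen with earlier results of these data known. Some results for single genes of these lists are not reported here. Further genes named for their role were chosen after their values were seen. No gene was named for likeness of pattern, which 2 arrays cannot give. The steps were tested on simulated data. Ratios and counts were computed in Python 3.11.15 with pandas 2.3.3 and numpy 2.4.6. The normexp alternative came from limma 3.58.1 in R 4.3.3, with an offset of 50 added to each signal. Other scalings, detection filters, probe rules and a threshold of 1.5-fold were also tried.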

Additional observations from a re-analysis of the deposited data

How the results depend on the processing

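The 4 measured genes kept their direction under 3 other scalings, the normexp background correction. The detection filters, the mean over probes, the outlier spots and the authors' value table could not move them. Admitting dim probes moved the counts and the median. With the weaker detection mark, the median log2 ratio of the erythroid and globin genes became 0.014, with 4 higher genes and 1 gene past 2-fold. With no detection filter it became -0.10, with 5 lower and 4 higher genes and 1 past 2-fold. In both settings the gene past 2-fold was *Hbb-y*, whose WT signal of 5.50 had an error of 5.13. Over all genes, 102 were at least 2-fold higher and 92 at least 2-fold lower. These counts became 46 and 40 with normexp, 292 and 321 with the weaker mark, 508 and 695 with no filter, and 441 and 412 at 1.5-fold. Scaling by the median gave 128 higher and 68 lower. Of the supporting lists, the median of the haem synthesis list changed sign under 2 scalings, at -0.0082 and -0.0044. That of the red cell membrane list became -0.07 with the mean over probes and -0.12 with no filter. With normexp the platelet median of 0.35 became 0.18 and the mast cell median of -0.52 became -0.31. The normexp setting adds an offset of 50 to each signal, which draws log2 ratios of dim probes toward 0. These shifts and the smaller counts with normexp therefore do not reflect background correction alone. No paired analysis was possible because each genotype has 1 array.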
